A study of Mus musculus with 9 samples.

Results

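MAP kinase phosphatases and other regulators of MAP kinase signalling, among them 1 activating kinase, were examined in RNA-seq libraries of TNF-α-stimulated cultures. The set held 10 of the 56289 genes in the deposited table and was chosen by name, with earlier results of these data known. Its phosphatase genes were Dusp1, Dusp4, Dusp5, Dusp6, Dusp10 and Dusp16. The others were the Sprouty genes Spry2 and Spry4, the kinase gene Map3k8 and the adaptor gene Gadd45b. All 10 were matched by Ensembl ID to a single symbol, and all 10 passed the filter on low values. The labels describe a macrophage-like line, RAW264.7, of BALB/c origin, cultured untreated (Con, 3 libraries), with TNF-α for 24 h (TNF-α, 3 libraries) or with TNF-α and an agent written WBP for 24 h (3 libraries). The last group was taken to be the one the study calls TNF-α+WBT, WBT being an extract of Wang Bi tablet, a herbal mixture. The study's methods give 20 ng/ml recombinant human TNF-α and 1.0 μg/ml WBT. No group received WBT alone.

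MAP kinases are switched on by phosphorylation of a threonine and a tyrosine, and the dual-specificity phosphatases (DUSP) remove both phosphates. DUSP5 and DUSP6 act mainly on ERK, the former in the nucleus and the latter in the cytoplasm. DUSP4 is a further nuclear enzyme of the family, and DUSP1, DUSP10 and DUSP16 act mainly on p38 and JNK. Sprouty proteins restrain the signal between growth factor receptors and ERK. MAP3K8, also called TPL2, relays signals of TNF and Toll-like receptors to MEK and ERK, and GADD45B binds kinases upstream of p38 and JNK. Many of these genes are themselves induced by the pathway they restrain, so that their transcripts are often read as a trace of recent MAP kinase activity.

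The values are FPKM, fragments per kilobase of transcript scaled to library depth, as deposited. Depth was estimated from the values at 16.8e6 to 26.0e6 fragments per library, which put between 17 and 2418 fragments on each of the 10 genes in each library. It was 20.2e6 to 26.0e6 in Con, 18.8e6 to 22.4e6 with TNF-α and 16.8e6 to 19.8e6 with TNF-α+WBT. Every TNF-α+WBT library was thus below every Con library in depth. The labelled cell type was checked against markers. Of 18 macrophage genes, Cd14 alone was above 1 FPKM in all 9 libraries and 7, among them Ptprc, Spi1, Itgam and Adgre1, were listed at 0 throughout, whereas 14 of 18 fibroblast genes and 9 of 12 Schwann cell genes were above 1 FPKM in all 9. The summed level of the macrophage list was 6.14 to 7.50 FPKM in Con, 7.14 to 8.17 FPKM with TNF-α and 7.24 to 8.81 FPKM with TNF-α+WBT, and that of the fibroblast list was 4642 to 5012, 4948 to 5200 and 4846 to 5016 FPKM in the same order. The cultures are therefore called by their treatment below. The sum of the Schwann cell list was 927 to 984 FPKM in Con, 753 to 814 FPKM with TNF-α and 819 to 847 FPKM with TNF-α+WBT. At an adjusted p under 0.05 in the limma model below, 5 of the 12 Schwann cell genes fell with TNF-α and none rose. Of 17 tested fibroblast genes 3 rose and 2 fell, and of 7 tested macrophage genes none was called. Of all tested genes 2.94% rose and 1.93% fell. The part of these lists in the results was not tested. In bulk RNA, fewer cells of a type and less RNA per cell cannot be told apart. On the second principal component TNF-α+WBT replicate 3 stood at 57.6 against 0.0721 and 3.64 for the other two, and TNF-α replicate 3 stood at -39.5 against -4.98 and -10.4. Leaving out either of them changed no gene-level call on these 10 genes.

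In Con cultures the levels per length spanned 2 orders of magnitude. Dusp6 was the highest, at 34.3 ± 0.795 FPKM (SD, n = 3), and Gadd45b followed at 32.6 ± 1.74 FPKM, with library ranges that overlapped. Spry2 stood at 26.5 ± 1.49, Dusp1 at 16.1 ± 0.357 and Dusp4 at 8.37 ± 0.832 FPKM, each apart from its neighbours in every library. Dusp10 at 6.23 ± 0.368 and Dusp16 at 5.70 ± 0.628 FPKM overlapped, and below them came Dusp5 at 3.88 ± 0.405, Map3k8 at 1.29 ± 0.391 and Spry4 at 0.295 ± 0.0233 FPKM, which were separate. With TNF-α the order changed at 3 places. Gadd45b was above Dusp6 in every TNF-α library, Map3k8 was above Dusp5 in every one, and Dusp16 was above Dusp10. The first 2 of these orders were also seen in each TNF-α+WBT library, while Dusp16 and Dusp10 overlapped there.

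**Figure D1:**
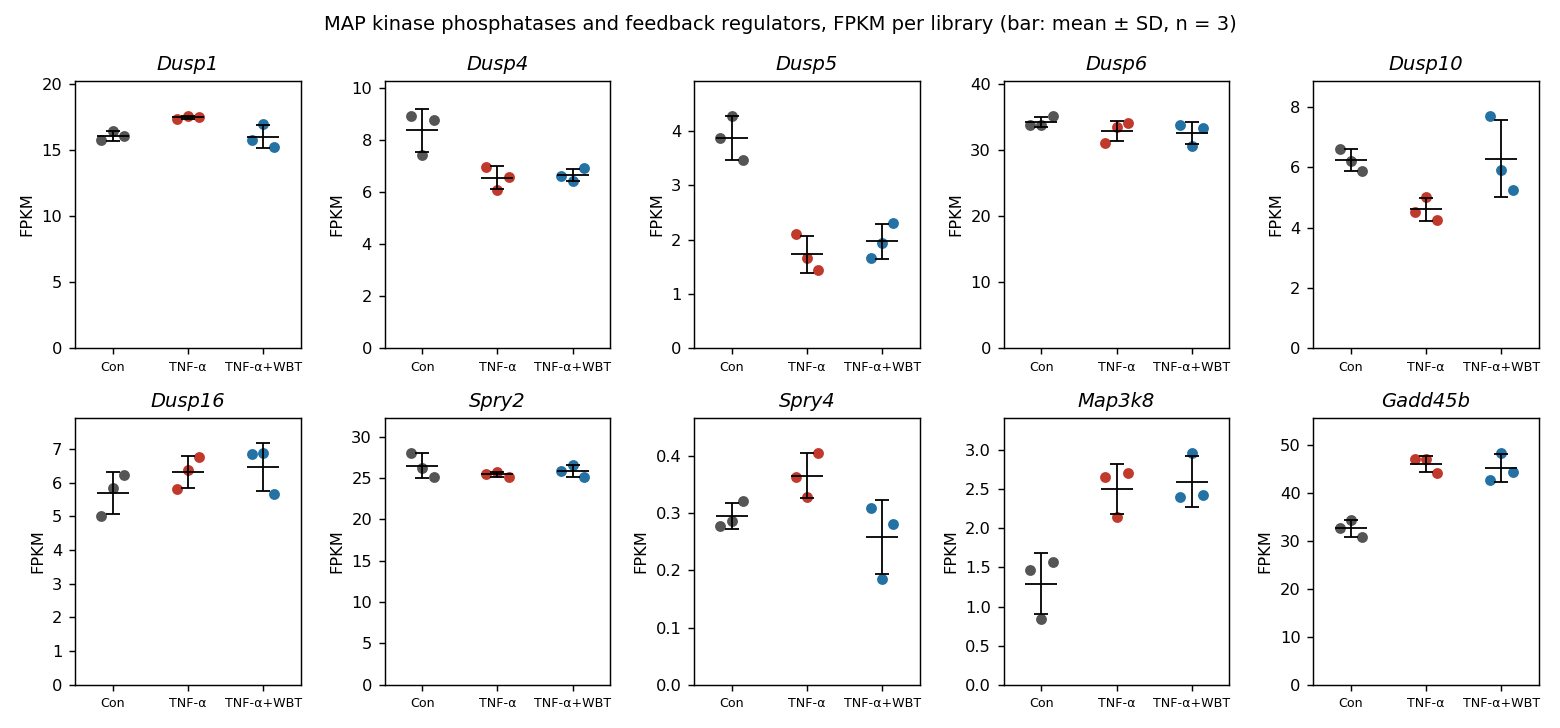
FPKM of each of the 10 genes in each library (points), with the mean and SD of the 3 libraries per group (bars), on axes that start at 0. Gadd45b, Map3k8, Dusp1 and Spry4 lie higher in all 3 TNF-α libraries than in all 3 Con libraries. Dusp5, Dusp4 and Dusp10 lie lower, while Dusp6, Spry2 and Dusp16 overlap.

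The first comparison asked how 24 h of TNF-α altered these genes. In a limma model of log2(FPKM + 0.1) fitted to all 25417 tested genes, a gene was called at a Benjamini-Hochberg adjusted p under 0.05. Of the 10 genes, 1 rose (Gadd45b), 1 fell (Dusp5) and 8 did not pass. Of all tested genes 2.94% rose and 1.93% fell, 4.86% together, and 8.37% were called among those that averaged 1 FPKM or more. The median log2 fold change of the 10 was 0.03, beside 0.0028 over all tested genes. Without adjustment 6 of the 10 had a p under 0.05, compared with 16.1% of all genes, and only Dusp5 also passed the study's limit of a 2-fold change, compared with 2.42%. The TNF-α and Con libraries did not overlap for 7 of the 10 genes, 4 of them higher and 3 lower, against 21.2% of all tested genes (11.1% higher and 10.2% lower) and 30.1% of those that averaged 1 FPKM or more. With 3 libraries against 3, an exact permutation test cannot give a p below 0.1.

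Gadd45b (ENSMUSG00000015312, chromosome 10, 80930073 to 80932204, plus strand, GRCm38) stood at 32.7, 34.3 and 30.9 FPKM in Con and at 47.0, 47.1 and 44.1 FPKM with TNF-α. All stimulated libraries were thus above all untreated ones. The log2 fold change was 0.50 ± 0.06 (SE; limma, adjusted p = 0.00175), a 1.41-fold rise, with a 95% interval of 0.36 to 0.63. Its relatives had other values. Gadd45a, whose protein is known from growth arrest and DNA damage, fell from 92.7 ± 1.34 to 59.0 ± 1.83 FPKM (SD, n = 3 each; log2 fold change of -0.65, limma, adjusted p = 1.14e-05), and Gadd45g had a log2 fold change of -0.05 (limma, adjusted p = 0.889). The ratio of Gadd45b to Gadd45a within a library was 0.356, 0.364 and 0.336 in Con and 0.827, 0.784 and 0.735 with TNF-α, a description with no test, since its 2 genes were already known to differ in opposite directions.

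Dusp5 (ENSMUSG00000034765, chromosome 19, 53529109 to 53542431, plus strand), the nuclear phosphatase of ERK, stood at 3.88, 4.28 and 3.47 FPKM in Con. With TNF-α it stood at 2.10, 1.66 and 1.43 FPKM, below every untreated library. Its log2 fold change was -1.13 ± 0.17 (SE; limma, adjusted p = 0.00697; 95% interval -1.53 to -0.73), the largest of the 10 genes in size. At least 67 estimated fragments lay behind each of its values. An exon of Dusp5 overlaps the annotated gene AC137853.2 on the opposite strand, and as the counting is not stated to use strand, reads of both cannot be told apart.

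The promoter sequences of the called pair are shown as a description, and the motif search was chosen after the values were seen. Whether motif content goes with the direction of change was not tested. They are from RefSeq on GRCm38.p6, 5′ to 3′ on the plus strand, and end before the first annotated exon in GENCODE M21. Capitals mark matches to the CArG box, the 10-base site bound by serum response factor, which is known for its part in the induction of immediate early genes by ERK.
Dusp5 (chr19:53528895-53529108): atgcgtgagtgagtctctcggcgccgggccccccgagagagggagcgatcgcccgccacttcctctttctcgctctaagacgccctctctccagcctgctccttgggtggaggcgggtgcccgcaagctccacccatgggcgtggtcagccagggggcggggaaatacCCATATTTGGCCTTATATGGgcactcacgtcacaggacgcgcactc
Gadd45b (chr10:80929841-80930072): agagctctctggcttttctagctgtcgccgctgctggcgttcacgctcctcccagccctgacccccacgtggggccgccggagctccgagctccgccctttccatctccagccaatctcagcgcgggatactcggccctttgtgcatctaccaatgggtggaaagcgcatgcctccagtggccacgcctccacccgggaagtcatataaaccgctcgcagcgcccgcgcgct
Of the 10 genes, 7 had an entry in the promoter table, which runs from 250 bases before to 50 after a RefSeq start. Both strands were searched for the CArG box, the 10-base κB consensus, TGANTCA (AP-1), TGACGTCA (CRE) and CCGGAAG (ETS). Dusp5 held 2 CArG boxes end to end, starting 82 and 72 bases before the start. Each reads on both strands, as any match to this pattern does. A CArG box was present in 1.63% of the 32851 promoters in the table, and at least 2 were present in 6 promoters (0.0183%). Among the genes read below as output of ERK and called there, Fos, Fosl2, Etv5, Hmga2, Ier3 and Epha2 held no CArG box in this window. Egr1, Egr3 and Ccnd1 had no entry. Bases further than 250 before the start were not searched, so sites there would be missed in any of these genes. Whether the sites of Dusp5 bear on its change was not tested. TGACGTCA, found in 1.79% of promoters, was present in that of Dusp1. None of the 5 motifs was found in the windows of Gadd45b, Dusp6, Dusp10, Dusp16 and Spry2. The κB consensus occurred in 8.46% of all promoters, TGANTCA in 7.81% and CCGGAAG in 8.86%. A match describes the letters only, and the lack of a match holds for this window only.

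Map3k8 (ENSMUSG00000024235, chromosome 18, 4331327 to 4353015, minus strand) had the largest upward difference of the set. It stood at 1.47, 0.847 and 1.57 FPKM in Con and at 2.66, 2.14 and 2.71 FPKM with TNF-α. The groups did not overlap, and the log2 fold change was 0.94 ± 0.23 (SE; 95% interval 0.42 to 1.45), but it missed the threshold (limma, adjusted p = 0.0555). It was called when testing was limited to genes that averaged 1 FPKM or more (limma, adjusted p = 0.0288), and again when transcript values were weighted by length before they were summed (limma, adjusted p = 0.0281). Over all settings its adjusted p ranged from 0.0281 to 0.172. Con replicate 2 was the lowest library of the gene, and without it the log2 fold change was 0.68 (limma, adjusted p = 0.0764). Nfkb1, whose product p105 holds MAP3K8 in resting cells, rose from 50.7 ± 2.64 to 65.7 ± 1.72 FPKM (SD, n = 3 each; log2 fold change of 0.38, limma, adjusted p = 0.00352). The ratio of Map3k8 to Dusp5, an activator of the ERK route over its nuclear phosphatase, was 0.198 to 0.452 in Con and 1.26 to 1.89 with TNF-α. This ratio is a description with no test, since its 2 genes were already seen to differ in opposite directions.

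Dusp4 (chromosome 8, 34807297 to 34819894, plus strand) stood at 8.92, 7.41 and 8.77 FPKM in Con and at 6.97, 6.08 and 6.57 FPKM with TNF-α. All TNF-α libraries were below all Con libraries, and the log2 fold change of -0.35 ± 0.09 (SE) missed the threshold (limma, adjusted p = 0.0645). It was called with the limit of 1 FPKM (limma, adjusted p = 0.0369), with the length-weighted sum (limma, adjusted p = 0.0437) and without Con replicate 2 (limma, adjusted p = 0.0250), while the highest adjusted p over the settings was 0.193. Dusp6 (chromosome 10, 99263231 to 99267489, plus strand), the cytoplasmic phosphatase of ERK and the most abundant of the family here, stood at 33.8, 33.9 and 35.2 FPKM in Con and at 31.2, 33.6 and 34.1 FPKM with TNF-α. These ranges overlapped, and the 95% interval of its log2 fold change ran from -0.18 to 0.06. The ratio of Dusp6 to Dusp5 went from 8.94 ± 1.13 to 19.6 ± 4.52 (SD, n = 3 each), with no overlap between the groups. That ratio is a description with no test, since Dusp5 was already known to differ.

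Of the phosphatases of p38 and JNK, none was called. Dusp1 (chromosome 17, 26505590 to 26562128, minus strand) stood at 15.7, 16.5 and 16.0 FPKM in Con and at 17.4, 17.6 and 17.5 FPKM with TNF-α. The groups were apart by a small step, a log2 fold change of 0.12 with a 95% interval of 0.01 to 0.23 (limma, adjusted p = 0.256). An exon of Dusp1 overlaps the gene Ergic1 on the opposite strand. Dusp10 (chromosome 1, 184013302 to 184075636, plus strand) stood at 6.61, 6.20 and 5.88 FPKM in Con and at 4.53, 5.02 and 4.27 FPKM with TNF-α. Every TNF-α library was lower, with a log2 fold change of -0.43 ± 0.14 (SE; limma, adjusted p = 0.143), and the length-weighted sum was called (limma, adjusted p = 0.0381). Dusp16 (chromosome 6, 134715468 to 134792625, minus strand) ranged from 5.01 to 6.24 FPKM in Con and from 5.82 to 6.77 FPKM with TNF-α, which overlapped (log2 fold change of 0.15, 95% interval -0.11 to 0.41).

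The Sprouty genes differed from each other mainly in level. Spry2 (chromosome 14, 105891947 to 105896819, minus strand) ranged from 25.1 to 28.1 FPKM in Con and from 25.1 to 25.7 FPKM with TNF-α, and the 95% interval of its log2 fold change was -0.16 to 0.05. Together with Dusp6 it was among the genes whose interval left the least room for a change. Spry4 (chromosome 18, 38586247 to 38601415, minus strand) was at 0.277, 0.287 and 0.321 FPKM in Con and at 0.363, 0.328 and 0.406 FPKM with TNF-α, on 17 to 36 estimated fragments per library. The groups did not overlap, but the 95% interval of -0.26 to 0.73 was wide (limma, adjusted p = 0.696).

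The second comparison asked whether WBT added to TNF-α altered these genes. In limma none of the 10 was called between TNF-α+WBT and TNF-α, compared with 0.00393% of all tested genes (1 gene) and 0.00788% of those that averaged 1 FPKM or more. None passed the limits of the study, as 1.12% of all genes did, and 2 of the 10, Dusp1 and Dusp10, had an unadjusted p under 0.05, compared with 6.31% of all genes. Ranges did not overlap for 3 of the 10 genes, 1 higher and 2 lower, against 5.39% of all tested genes higher and 5.61% lower and 13.1% of those that averaged 1 FPKM or more. For the pair called with TNF-α, Gadd45b stood at 42.8, 48.5 and 44.3 FPKM with TNF-α+WBT, which overlapped the TNF-α libraries, with a log2 fold change of -0.03 (95% interval -0.16 to 0.11). The ratio of Gadd45b to Gadd45a, again a description with no test, was 0.650, 0.730 and 0.656, below the TNF-α libraries and above the Con libraries. Neither of its genes was called between TNF-α+WBT and TNF-α. Gadd45a stood at 66.6 ± 0.819 FPKM with TNF-α+WBT (SD, n = 3; log2 fold change of 0.18 against TNF-α, limma, adjusted p = 0.300). Dusp5 stood at 1.67, 1.93 and 2.31 FPKM, which also overlapped the TNF-α libraries (log2 fold change of 0.18, 95% interval -0.22 to 0.58). Map3k8 stood at 2.40, 2.97 and 2.43 FPKM (95% interval -0.46 to 0.57) and Dusp4 at 6.60, 6.44 and 6.91 FPKM (95% interval -0.17 to 0.22). Dusp6 ranged from 30.7 to 33.8 FPKM (95% interval -0.13 to 0.10), Spry2 from 25.1 to 26.6 FPKM (95% interval -0.08 to 0.13) and Dusp16 from 5.65 to 6.89 FPKM (95% interval -0.23 to 0.28), all across the TNF-α libraries. The median log2 fold change of the 10 genes was 0.02, beside -0.0020 over all tested genes. Of these 7 genes, Dusp5 and Map3k8 had the widest intervals.

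Dusp10, Dusp1 and Spry4 were the genes whose libraries were apart. Dusp10 stood at 7.70, 5.91 and 5.26 FPKM with TNF-α+WBT, above all TNF-α libraries (log2 fold change of 0.43, 95% interval 0.12 to 0.74, limma, adjusted p = 0.674). Dusp1 stood at 15.8, 17.0 and 15.3 FPKM, below all TNF-α libraries by a log2 fold change of -0.13 ± 0.05 (SE; limma, adjusted p = 0.723). Spry4 stood at 0.309, 0.185 and 0.281 FPKM (log2 fold change of -0.39, 95% interval -0.89 to 0.11, limma, adjusted p = 0.824), the widest interval but 1 of the 10 genes. In the third comparison, TNF-α+WBT against Con, which shares libraries with both others, Gadd45b (log2 fold change of 0.47, limma, adjusted p = 0.00302) and Dusp5 (log2 fold change of -0.95, limma, adjusted p = 0.0205) were the 2 of the 10 genes called. Of all tested genes 2.31% rose and 1.4% fell, 3.71% together, and 6.46% were called among those that averaged 1 FPKM or more. Without adjustment 4 of the 10 genes had a p under 0.05, compared with 14.7%, and none passed the limits of the study, as 2.29% did. Ranges did not overlap for 5 of the 10, 2 higher and 3 lower, against 19.5% of all tested genes (10.2% higher and 9.25% lower) and 27.0% of those that averaged 1 FPKM or more. The call on Dusp5 was lost with the replicate number as a block (limma, adjusted p = 0.0696), with no filter on low values (limma, adjusted p = 0.0664) and without Con replicate 1 or 2 or TNF-α+WBT replicate 1 or 2 (adjusted p of 0.0694 to 0.0776, limma), with a log2 fold change that stayed at or below -0.84 in these fits. Without Con replicate 2, Dusp4 was called in its place (limma, adjusted p = 0.0375), against an adjusted p of 0.0974 with all libraries. Map3k8, which had a log2 fold change of 0.99 and missed the threshold here (limma, adjusted p = 0.0536), was called with a pseudocount of 0.01 (limma, adjusted p = 0.0484), with the limit of 1 FPKM (limma, adjusted p = 0.0270) and with the length-weighted sum (limma, adjusted p = 0.0338).

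**Figure D2:**
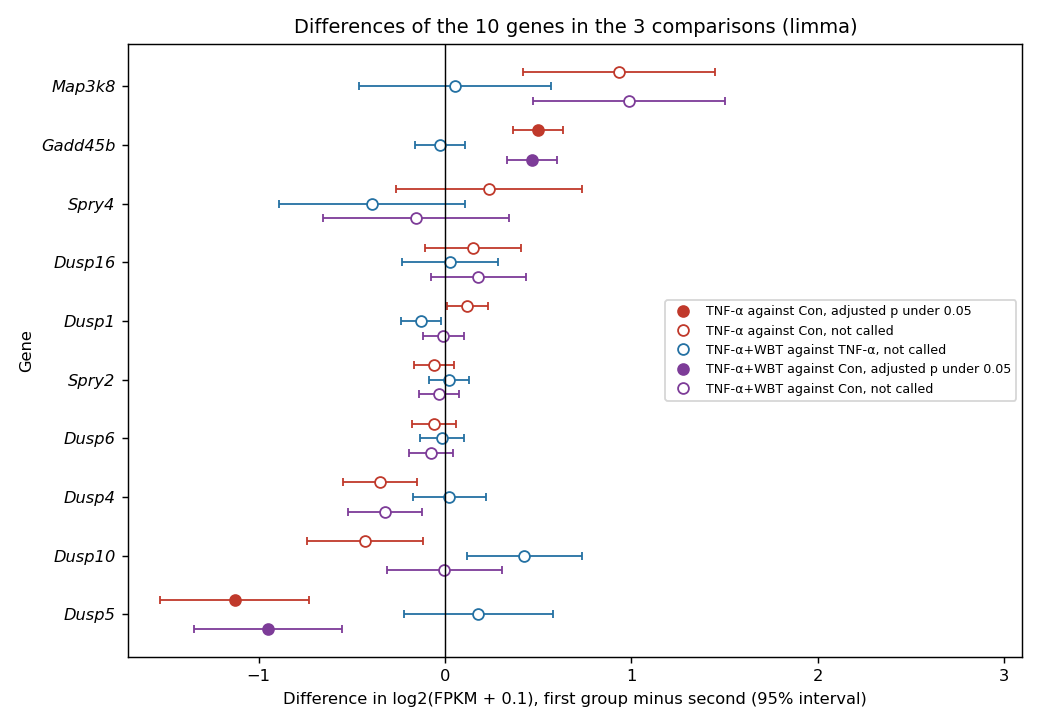
Difference in log2(FPKM + 0.1) between groups for each gene (points), with the 95% interval from limma (bars), in the 3 comparisons, where filled points had an adjusted p under 0.05. Gadd45b and Dusp5 are called against Con with and without WBT, and the open points of TNF-α+WBT against TNF-α show no call.

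The transcript table showed how far these gene values depended on the division of fragments between annotated transcripts. The 10 genes had 31 transcripts, of which 28 could be tested. Between TNF-α and Con 1 was called, Gadd45b-201 (log2 fold change of 0.52, limma, adjusted p = 0.0349), compared with 0.635% of all tested transcripts, and it held 92.1% of the level of its gene. This call was lost with the replicate number as a block and with any 1 of the 6 libraries left out. Without adjustment 7 of the 28 had a p under 0.05, compared with 8.14%. Dusp4, Dusp5, Spry2 and Spry4 have a single annotated transcript each. Dusp5-201 carried the same log2 fold change as its gene, with a standard error of 0.19 and an adjusted p of 0.0552 in the fit over transcripts (limma). With WBT added to TNF-α none of the 28 was called in limma, compared with 0.0424% of all tested transcripts, and 3 had an unadjusted p under 0.05, compared with 5.17% of all tested transcripts.

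For Dusp10, the highest value with WBT depended on a short transcript in 1 library. Dusp10-202, a transcript of 724 bases that begins upstream of the main one, was listed at 0 in 7 libraries, at 0.122 FPKM in TNF-α+WBT replicate 2 and at 4.20 FPKM in TNF-α+WBT replicate 1. The main transcript, Dusp10-201 (2792 bases), stood at 3.50, 5.79 and 5.26 FPKM with TNF-α+WBT and at 4.53, 5.02 and 4.27 FPKM with TNF-α, so these ranges overlapped (log2 fold change of 0.04, 95% interval -0.38 to 0.47). With transcript values weighted by length, which gives fragments scaled to library depth (FPM), Dusp10 had 12.8, 16.2 and 14.7 FPM with TNF-α+WBT, 12.7, 14.0 and 11.9 with TNF-α and 18.5, 17.3 and 16.4 in Con. On this scale TNF-α+WBT replicate 1 lay among the TNF-α libraries, and all TNF-α+WBT libraries lay below all Con libraries. The log2 fold change of TNF-α+WBT against TNF-α was 0.18 on this scale, and on gene FPKM it was 0.27 without TNF-α+WBT replicate 1, with the 2 libraries left still above the TNF-α libraries.

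For Dusp1, a nearly constant gene value covered 2 main transcripts that lay on opposite sides of Con. The coding transcript Dusp1-202 stood at 7.57, 6.30 and 8.05 FPKM in Con and at 5.16, 5.95 and 5.99 FPKM with TNF-α, lower in every library (log2 fold change of -0.35, limma, adjusted p = 0.495). Dusp1-203, annotated as retaining an intron, stood at 7.28, 9.02 and 6.73 FPKM in Con and at 10.1, 9.77 and 9.91 FPKM with TNF-α, higher in every library (log2 fold change of 0.38, limma, adjusted p = 0.799). Neither was called. Transcripts annotated with a retained intron made up 51.9%, 59.4% and 49.6% of the Dusp1 level in Con, 70.2%, 66.2% and 65.7% with TNF-α, but 57.8%, 55.3% and 33.5% with TNF-α+WBT. All 3 TNF-α libraries were above the other 6. In the library at 33.5%, TNF-α+WBT replicate 3, a further coding transcript, Dusp1-206, was listed at 2.40 FPKM, where the other 8 libraries listed it at 0. For Map3k8 the corresponding share was 35.1% to 45.6% in Con, 29.7% to 31.0% with TNF-α and 35.6% to 39.4% with TNF-α+WBT. It rested on few estimated fragments per library, 3.4 to 13.7 of Map3k8-204 and 2.2 to 14.5 of Map3k8-203. For Dusp16 the share was 0.4% to 8.3% in Con, 1% to 4.7% with TNF-α and 2.6% to 5.8% with TNF-α+WBT. For Gadd45b it was 2.2% to 3.8%, 2.6% to 3.9% and 1.9% to 4.4% in the same order. In both genes the groups overlapped. The coding transcript Map3k8-201 stood at 0.933, 0.544 and 0.828 FPKM in Con and at 1.83, 1.45 and 0.839 FPKM with TNF-α. In TNF-α replicate 3, the library at 0.839 FPKM, a transcript subject to nonsense-mediated decay, Map3k8-205, was listed at 1.04 FPKM, and the gene values were apart while those of Map3k8-201 overlapped.

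**Figure D3:**
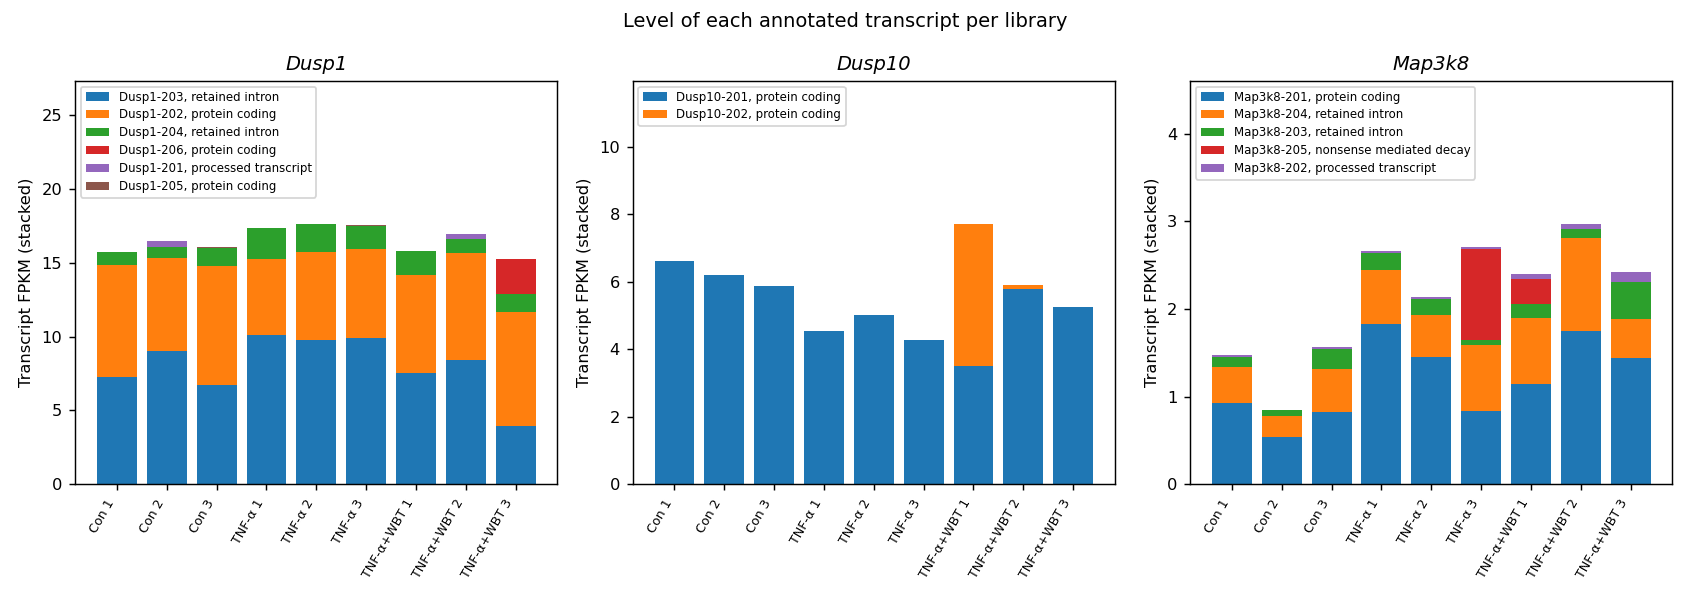
FPKM of each annotated transcript of Dusp1, Dusp10 and Map3k8, stacked per library, with the first-listed transcript at the bottom. The extra Dusp10 level in TNF-α+WBT replicate 1 is Dusp10-202 at 4.20 FPKM, and the retained-intron share of Dusp1 is 65.7% to 70.2% in the TNF-α libraries.

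The rest of the pathway was read from lists chosen by function, with earlier results of these data known. With TNF-α 4.86% of all tested genes were called, and 8.37% of those that averaged 1 FPKM or more. Of 19 tested genes for other phosphatases, none was called in any of the 3 comparisons in limma. With TNF-α against Con 6 of them had an unadjusted p under 0.05, compared with 16.1% of all tested genes. With TNF-α+WBT 1 had it against TNF-α (6.31% of all) and 4 against Con (14.7% of all). The median of these phosphatase genes on the log2 scale was 0.11 for TNF-α against Con and -0.09 for TNF-α+WBT against TNF-α. Dusp2, an inducible nuclear phosphatase, stood at 2.44 FPKM in Con and 1.56 FPKM with TNF-α (log2 fold change of -0.61, limma, adjusted p = 0.110). Of 19 other feedback genes, 3 rose (Nfkb1, Tob1 and Lrig1) and 1 fell (Gadd45a) with TNF-α, while Spry1, Spred1, Spred2 and Spred3 had log2 fold changes from -0.08 to 0.03 and were not called. Lrig1, which promotes the turnover of ERBB receptors, rose from 46.6 ± 0.915 to 58.0 ± 2.63 FPKM (SD, n = 3 each).

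Among 25 genes of the RAS, RAF, MEK and ERK cascade, 2 rose and 1 fell with TNF-α, with a list median of 0.0046 on the log2 scale. Ksr1, a scaffold of RAF and MEK, rose from 3.20 ± 0.0817 to 4.98 ± 0.283 FPKM and Rras, a RAS relative, from 21.7 ± 3.59 to 37.2 ± 2.93 FPKM. Sos2, an exchange factor for RAS, fell from 8.97 ± 0.408 to 5.95 ± 0.710 FPKM (SD, n = 3 each). Of 29 tested genes of the p38 and JNK cascade, 1 was called with TNF-α. Mapk11, which encodes p38β, rose from 5.74 ± 0.531 to 10.9 ± 0.103 FPKM (SD, n = 3 each; log2 fold change of 0.91, limma, adjusted p = 0.000281). Rps6ka4, a kinase activated by p38 and ERK, was called only with TNF-α+WBT against Con (log2 fold change of 0.33, limma, adjusted p = 0.0354), and with TNF-α alone it had a log2 fold change of 0.28 (limma, adjusted p = 0.0538).

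Transcripts commonly read as output of ERK were divided. With TNF-α 5 of 26 rose and 4 fell, compared with 2.94% and 1.93% of all tested genes, and the list median was 0.03. The cyclin gene Ccnd1 rose from 84.9 ± 2.31 to 121.5 ± 1.502 FPKM, the ETS factor gene Etv5 from 16.0 ± 0.964 to 21.4 ± 0.310 FPKM and Ier3 from 19.1 ± 0.625 to 31.8 ± 2.02 FPKM (SD, n = 3 each). Hmga2 and Epha2 rose as well. Egr1, an immediate early gene, fell from 7.42 ± 0.295 to 4.66 ± 0.181 FPKM (SD, n = 3 each; log2 fold change of -0.66, limma, adjusted p = 0.000602). Fos (log2 fold change of -0.96), Egr3 (-0.90) and Fosl2 (-0.21) fell as well. Of the 12 JUN family and stress factor genes, 2 rose and 3 fell with TNF-α. Atf3 fell from 62.6 ± 0.576 to 20.7 ± 1.09 FPKM and Jun from 101.0 ± 1.77 to 40.2 ± 1.52 FPKM, whereas Junb rose from 68.8 ± 2.66 to 94.1 ± 2.11 FPKM (SD, n = 3 each). Maf fell and Jund rose. NF-κB feedback genes, which are direct targets of TNF-α signalling, had the highest share of calls among these lists, with 9 of 12 called and all 9 higher, at a list median of 1.29. Nfkbia, which encodes IκBα, had 24.7 ± 1.64 FPKM in Con and 80.3 ± 1.52 FPKM with TNF-α (SD, n = 3 each). Relb, Tnip1, Nfkb2 and Bcl3 had log2 fold changes of 2.15, 1.35, 1.23 and 1.67. When WBT was added to TNF-α, no gene of any of these lists was called in limma. The smallest adjusted p was that of Atf3, at 27.7 ± 0.898 FPKM with TNF-α+WBT (SD, n = 3). Its log2 fold change against TNF-α was 0.42 (limma, adjusted p = 0.0794). An unadjusted p under 0.05 was most frequent among the NF-κB feedback genes (5 of 12, at a list median of -0.19). It was found for 1 to 3 genes in each other list and for 6.31% of all tested genes.

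**Figure D4:**
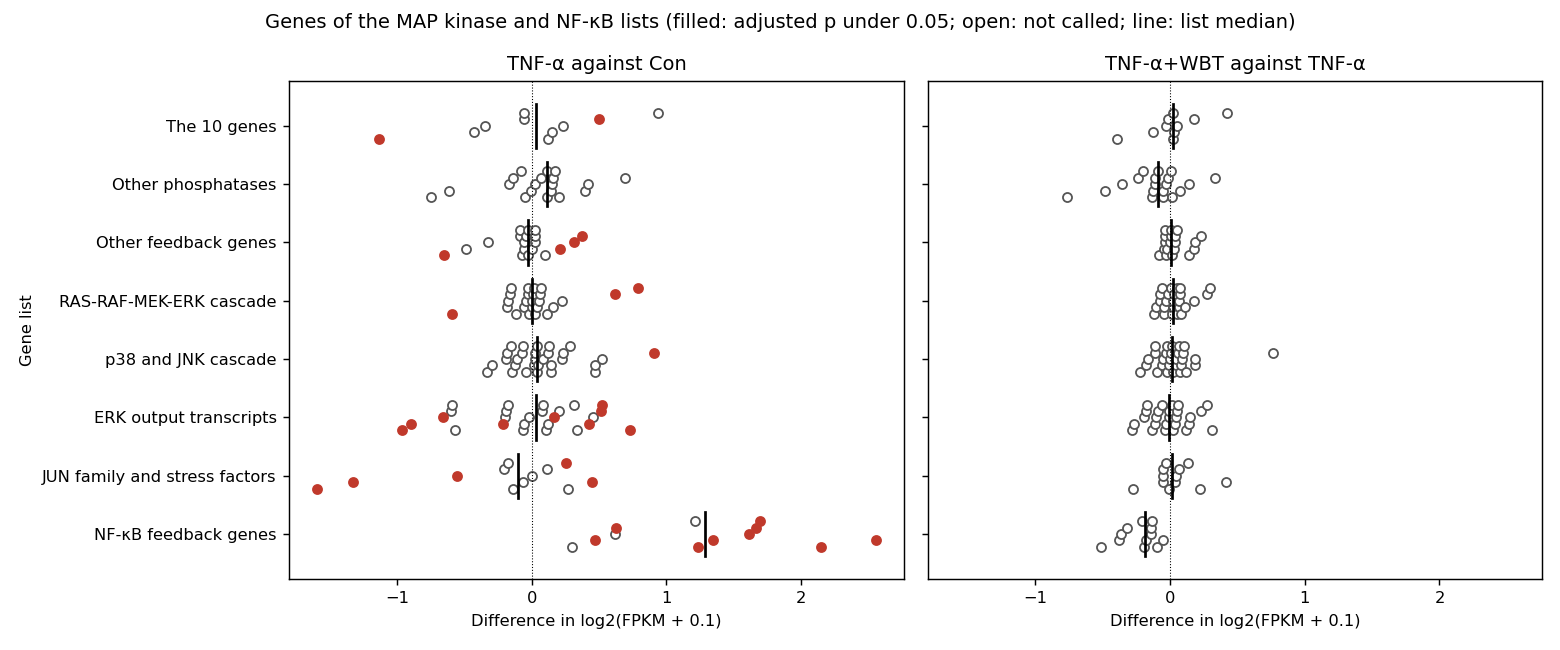
Difference in log2(FPKM + 0.1) for each tested gene of the 10-gene set and of the 7 other lists, with filled points for an adjusted p under 0.05 and a vertical line at the list median, for TNF-α against Con (left) and TNF-α+WBT against TNF-α (right). The NF-κB feedback genes have a median of 1.29 with TNF-α, the 10 genes have a median of 0.03, and no point is filled on the right.

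Among the 12683 other tested genes that averaged 1 FPKM or more, the pattern over the 9 libraries most like that of Gadd45b was that of C1ra (Pearson r = 0.995), followed by H2-K1 (r = 0.991), Junb (r = 0.989) and Myh9 (r = 0.989). The genes most like Dusp5 were Mapk8ip1 (r = 0.988), a scaffold gene of the JNK cascade at 15.6 FPKM in Con and 13.6 FPKM with TNF-α, then Igfbp3 (r = 0.977), Kirrel3 (r = 0.975), Cdk2ap1 (r = 0.971) and Kcna2 (r = 0.969). These correlations are descriptions, since the 9 libraries share 3 treatment groups and are not independent points.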

How the data were processed

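The authors aligned paired-end poly(A) RNA-seq reads with HISAT2 and estimated expression with StringTie, as a diagram in the paper shows, and versions, genome build and annotation are not given in the sources used here. They deposited FPKM per gene (56289) and per transcript (144726), and counts were not used here. Symbols, positions, transcript lengths and types were taken from GENCODE M21 (GRCm38), which matched 98.0% of gene IDs. Fragments per library were estimated from low values of 10706 single-transcript genes longer than 1000 bases, which are multiples of the worth of 1 fragment. Between 58.1% and 61.1% of low values then lay within 0.1 of a whole number, so fragments are approximate and show counting error only. The test used log2(FPKM + 0.1) of every gene that exceeded 0 in 3 or more libraries, which understates changes of low genes, and limma 3.58.1 in R 4.3.3 (lmFit, eBayes with an intensity trend, all 9 libraries, a mean per group), and transcripts likewise. The model was tested on simulated data. Python 3.11.15, pandas 2.3.3, numpy 2.4.6 and scipy 1.17.1 served for the rest.

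All 10 genes are named, with up to 5 called genes per other list by smallest p. Further genes named (Dusp2, Gadd45g, Spry1, the Spred genes, Fos, Egr3, Epha2, Fosl2) and the Dusp1-206, Dusp10-202 and Map3k8-205 transcripts were chosen after their values were seen, as were the ratios and the motif search. The members and lists were chosen with earlier results of these data known. Spry3 was not matched, Ddit3 matched 2 IDs, and neither was analysed here. For likeness over the libraries, the 5 genes with the highest Pearson r were taken for each called gene, of which 1 is not reported here. Replicates are described by the study as biological, and p-values measure only the spread between these libraries. Same-numbered libraries did not deviate together (correlations from -0.03 to 0.032), so replicate numbers were not used as a block in the reported model.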

Additional observations from a re-analysis of the deposited data

How the results depend on the processing

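The alternatives were other pseudocounts and filters, a model with no intensity trend or with 2 groups only, median centring or quantiles, transcript sums, a replicate block and the omission of each library. The length-weighted sum over transcripts was chosen after seeing the data. Between TNF-α and Con, Gadd45b and Dusp5 were called under every one of these. The count of 2 called genes became 4 with a mean of at least 1 FPKM and 5 with the length-weighted sum. Leaving out a library gave 2 to 3. Between TNF-α+WBT and Con the count of 2 became 1 with the replicate block and 1 with no filter on low values, since the call on Dusp5 was lost. It became 3, with Map3k8 added, with a pseudocount of 0.01, a mean of at least 1 FPKM or the length-weighted sum. With a library left out it was 1 to 2, and the 2 called without Con replicate 2 were Gadd45b and Dusp4. For transcripts between TNF-α and Con, the count of 1 became 2 with a mean of at least 1 FPKM, 0 with the replicate block and 0 with any library left out. The replicate block changed no other call. Between TNF-α+WBT and TNF-α none of the 10 genes was called under any alternative, while the count over all tested genes, 1 as reported, reached 11 with a pseudocount of 0.01, 10 with no filter on low values and 7 with no intensity trend.

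Signs turned only for differences that were not called. Between TNF-α+WBT and TNF-α, with a library left out, the log2 fold changes ranged from -0.026 to 0.070 for Dusp4, -0.055 to 0.027 for Dusp6, -0.0295 to 0.12 for Dusp16, -0.052 to 0.11 for Map3k8, -0.080 to 0.0087 for Gadd45b and -0.10 to 0.26 for Dusp10-201. Map3k8 was at -0.0079 with the length-weighted sum. Between TNF-α+WBT and Con they ranged from -0.051 to 0.026 for Dusp1, -0.16 to 0.12 for Dusp10, -0.070 to 0.0097 for Spry2 and -0.26 to 0.00038 for Spry4. Depth limits Spry4 and Map3k8 most, at 17 to 36 and 36 to 116 estimated fragments per library. Dusp10 between TNF-α+WBT and TNF-α moved from 0.43 to 0.18 with the length-weighted sum.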
